A study of Mus musculus with 5 samples.

Results

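This section describes 10 genes of the striated muscle sarcomere in sorted mouse retinal cells: the troponin genes Tnnt1, Tnnt2, Tnnt3, Tnni1, Tnni3, Tnnc1 and Tnnc2, the myosin heavy chain genes Myh3 and Myh7, and the cardiac actin gene Actc1. They were taken by gene symbol from a table of 24594 genes, and all 10 had a row. They were selected on the normalised read counts of these same libraries, Tnnt2 and Myh3 having been seen to be higher, so everything said of the 10 genes in this contrast is a description without a test. Newborn mouse pups received a CAG-GFP plasmid (green fluorescent protein, the control) or a CAG-Zfp292 plasmid by electroporation into the living eye at postnatal day 0, and retinas were harvested 4 days later. GFP+ cells, named RPCs in the labels, were collected by FACS, which gave 2 control libraries and 3 libraries labelled Zfp292-OE. The CAG promoter is active in most cell types, so the promoter alone would not limit plasmid expression to one of them. The labels give no strain and do not say whether animals were pooled or came from several litters, so the spread between libraries may be technical.

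The libraries held 103096224 to 137683716 reads assigned to genes. Zfp292, the gene named on the plasmid, had 13288 and 14756 normalised reads in the controls and 14631, 13197 and 15534 in the others. The groups overlapped (limma log2 fold change 0.04, adjusted p = 0.87), so every direction below follows the labels alone. Summed over 7 retinal progenitor markers, among them Ccnd1 and Pax6, the level was 170427 to 187525 in control and 170925 to 218829 in the other libraries. The sum hides opposite calls, as limma called 1 of the 7 higher and 1 lower. Of all tested genes, 10% were higher and 7.38% lower. The higher marker was Ccnd1, at 19732 and 18547 in control and 54303, 81971 and 47311 in the others (log2 fold change 1.64, limma adjusted p = 0.0012). Nr2e3, a transcription factor of rods, was also abundant, at 119743 and 91600 in control and 27160, 33459 and 37204 in the libraries labelled Zfp292-OE. In such bulk libraries, fewer cells of a type and less RNA per cell cannot be told apart.

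In striated muscle, the sarcomere is the repeating unit in which thick filaments of myosin pull on thin filaments of actin. Troponin sits on the thin filament as a complex of a calcium-binding subunit (troponin C), an inhibitory subunit (troponin I) and a subunit that anchors the complex to tropomyosin (troponin T). Each subunit has several genes, used in slow skeletal, fast skeletal or cardiac muscle, and developing muscle uses other combinations than adult muscle. The neural retina has no sarcomeres.

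Of the 10 genes, Tnnt2, Tnni1 and Myh3 were the ones whose values separated the groups, all of them higher in the libraries labelled Zfp292-OE. RefSeq sequence of GRCm38.p6 just upstream of an annotated start was matched for 9 of the 10 genes by symbol. The 250 bases before a start are shown for these 3 genes, since they were the members that were higher together, with capitals marking every match to a searched motif. Where several windows were matched for a gene, the one with the lowest coordinate is shown. For all 3 genes the start that follows the window lies inside the gene span given below. It is just inside for Tnnt2 and Myh3 and far inside for Tnni1, whose whole window lies within its span.
Tnnt2, chr1:135836084-135836333, plus strand: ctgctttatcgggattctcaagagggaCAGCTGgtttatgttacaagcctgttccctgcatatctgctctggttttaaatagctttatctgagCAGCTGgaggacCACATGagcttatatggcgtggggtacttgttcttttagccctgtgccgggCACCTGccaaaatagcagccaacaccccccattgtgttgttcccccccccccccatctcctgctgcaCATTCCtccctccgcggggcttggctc
Tnni1, chr1:135799171-135799420, plus strand: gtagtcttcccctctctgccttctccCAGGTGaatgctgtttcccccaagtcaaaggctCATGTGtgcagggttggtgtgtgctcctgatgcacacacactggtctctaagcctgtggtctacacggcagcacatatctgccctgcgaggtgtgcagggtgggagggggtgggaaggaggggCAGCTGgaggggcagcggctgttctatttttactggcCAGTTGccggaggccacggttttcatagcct
Myh3, chr11:67078050-67078299, plus strand: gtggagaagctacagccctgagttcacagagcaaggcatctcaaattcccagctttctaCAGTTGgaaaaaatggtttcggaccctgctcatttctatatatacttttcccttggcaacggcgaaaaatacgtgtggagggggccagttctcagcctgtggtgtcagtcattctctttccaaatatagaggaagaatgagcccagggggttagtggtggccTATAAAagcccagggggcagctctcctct

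The motifs searched on both strands were the MCAT element (CATTCC), the E-box (CANNTG), the TATA box (TATAAA), the MEF2 site and the CArG box, and no 2 matches overlapped in the 3 windows shown. The Tnnt2 window held 1 MCAT element, which begins 27 bases before the start, and 4 E-boxes. The Tnni1 window held 4 E-boxes, and the Myh3 window held 1 E-box and a TATA box that begins 29 bases before the start. MCAT elements occurred in 12.6%, E-boxes in 66.2% and TATA boxes in 12.4% of 32851 windows of the same length upstream of all RefSeq starts in the table. Among the 9 members an MCAT element was also matched for Tnnc1 and Myh7, a TATA box for Tnnt1, and a CArG box for Actc1 alone (1.47% of all windows). No MEF2 site was matched in the 12 windows of the 9 members, against 1.69% of all windows. These matches describe letters only.

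Tnnt2, the cardiac troponin T gene, which embryonic skeletal muscle also uses, was nearly unread in control. It had normalised read counts of 6.54 and 3.08 in control libraries 1 and 2, from 6 and 4 reads. In libraries 1, 2 and 3 labelled Zfp292-OE it had 640.0, 771 and 746. The 3 values lay close together and far above both controls. Mean values were 4.81 ± 2.45 (SD, n = 2) and 719 ± 69.4 (SD, n = 3), a fold of 149, and the difference of the mean log2(value + 1) was 7.02 (SE 0.66). The control level rests on 10 reads. The ratio of the pooled reads, after allowing for the authors' scaling of each library, was 160.2. Its exact binomial 95% interval of 86.9 to 335 covers counting error only. Tnnt2 (Entrez 21956) lies on chromosome 1 of GRCm38 at 135836315 to 135852268.

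Tnnt1, the slow skeletal troponin T gene (chromosome 7, 4504569 to 4515975), was read in every library. Its values were 258 and 622 in control and 172, 352 and 278 in the libraries labelled Zfp292-OE, and the groups overlapped. The means of 440.3 ± 257 (SD, n = 2) and 268 ± 90.6 (SD, n = 3) gave a log2 difference of −0.64 (SE 0.53), a difference within the spread of the control pair. It was −1.27 without control library 1, −0.0091 without control library 2 and −0.36 without library 1 labelled Zfp292-OE. Tnnt3, the fast skeletal troponin T gene (chromosome 7, 142498771 to 142516213), had 7.63 in control library 1, 12.6 in library 3 labelled Zfp292-OE and 0 in the other 3 libraries, and was too low to enter the fit.

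Tnni1 was also higher. It encodes the slow skeletal troponin I, which is likewise the troponin I of the embryonic heart (chromosome 1, 135783033 to 135810989). Its values were 150.4 and 196 in control and 2363, 3293 and 2014 in the libraries labelled Zfp292-OE. All 3 lay more than 10 times above both controls. Mean values were 173 ± 32.5 (SD, n = 2) and 2557 ± 661 (SD, n = 3), a fold of 14.7 and a log2 difference of 3.86 (SE 0.32). Unlike Tnnt2, Tnni1 was well read in control, with 393 reads over the 2 libraries.

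Tnni3, the troponin I gene of the adult heart (chromosome 7, 4518305 to 4522718), was read at a low level in both groups. It had 37.1 and 73.9 in control and 55.9, 83.6 and 52.3 in the libraries labelled Zfp292-OE. The groups overlapped, with means of 55.5 ± 26.1 (SD, n = 2) and 64.0 ± 17.1 (SD, n = 3) and a log2 difference of 0.25 (SE 0.81).

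For the calcium-binding subunit, one gene overlapped between the groups and the other was not read. Tnnc1, the troponin C gene of both cardiac and slow muscle (chromosome 14, 31208312 to 31211729), had 223 and 266 in control and 256, 144 and 231 in the libraries labelled Zfp292-OE. Its groups overlapped, at 245 ± 30.4 (SD, n = 2) and 210.2 ± 58.8 (SD, n = 3), with a log2 difference of −0.26 (SE 0.50). Tnnc2, the fast skeletal troponin C gene (chromosome 2, 164777161 to 164779734), had 0 reads in all 5 libraries, which allows up to 3 reads, or a normalised count of 2.31 to 3.42 depending on the library.

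Among the myosins, Myh3 stood apart. Myh3 encodes the embryonic myosin heavy chain of developing skeletal muscle (chromosome 11, 67078273 to 67102291). It had 0 and 3.08 in control, from 0 and 4 reads, and 114, 51.7 and 128 in the libraries labelled Zfp292-OE. The lowest of the 3, in library 2, was still far above the control with reads. Mean values were 1.54 ± 2.18 (SD, n = 2) and 97.8 ± 40.5 (SD, n = 3), a fold of 63.5 and a log2 difference of 5.51 (SE 1.27). With only 4 control reads, the ratio of pooled reads, allowing for the scaling as for Tnnt2, was 53.0. Its exact binomial 95% interval of 20.5 to 196 covers counting error only. The log2 difference was 4.496 without control library 1 and 6.52 without control library 2.

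Myh7, the slow and cardiac myosin heavy chain (chromosome 14, 54970684 to 54994626), had 34.9 and 22.3 in control and 36.5, 37.6 and 20.9 in the libraries labelled Zfp292-OE. The groups overlapped, with means of 28.6 ± 8.87 (SD, n = 2) and 31.7 ± 9.32 (SD, n = 3). Myosin heavy chain genes are similar in sequence, so reads of Myh3, Myh7 and their relatives are uncertain to the extent that counting could not assign them to 1 copy.

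Actc1, the cardiac actin of the thin filament (chromosome 2, 114047282 to 114052875), varied widely within both groups. It had 1191 and 499.8 in control and 138, 378 and 1062 in the libraries labelled Zfp292-OE, so library 3 lay between the controls and library 1 lay lowest. The means of 846 ± 489 (SD, n = 2) and 526 ± 479.5 (SD, n = 3) gave a log2 difference of −1.01 (SE 0.74), and −0.28 without library 1 labelled Zfp292-OE, −0.39 without control library 1, −1.64 without control library 2 and −1.75 without library 3 labelled Zfp292-OE. Actc1 shares most of its coding sequence with the other actins, and its reads are uncertain for the same reason as those of the myosins.

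**Figure D1:**
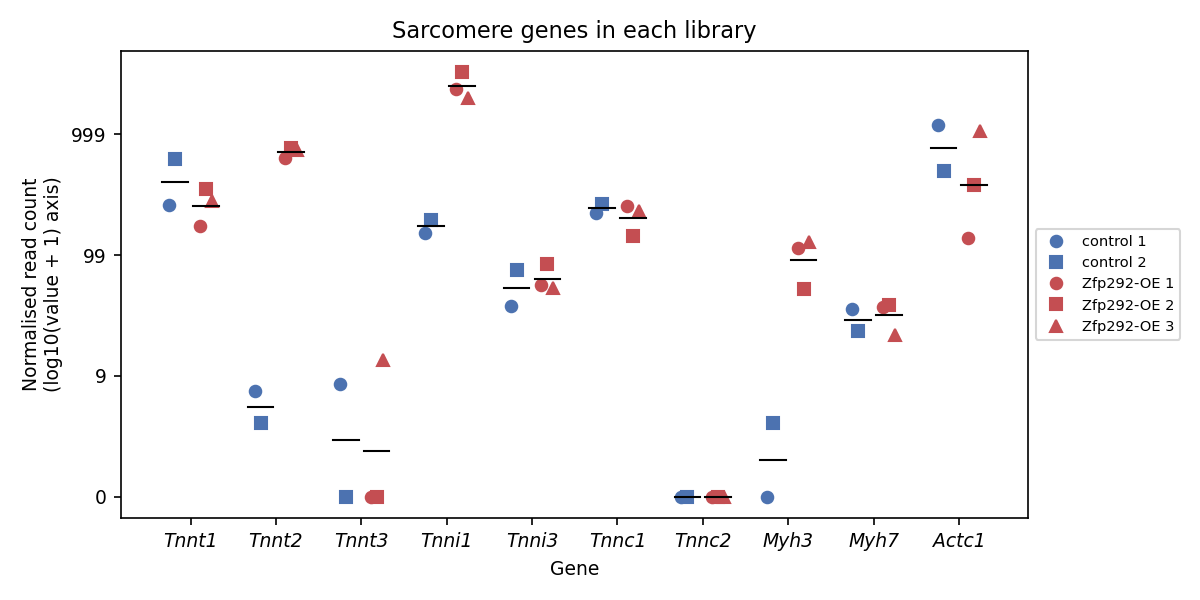
Normalised read count of each of the 10 genes in each library, on a log10(value + 1) axis (blue, 2 control libraries, and red, 3 libraries labelled Zfp292-OE; black bars, means of the logs). For Tnnt2, Tnni1 and Myh3 every red point lies above both blue points; for the other genes the groups overlap or all values are 0.

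In the fit across all genes, 8 of the 10 genes had a mean of at least 10 and entered the test, while Tnnt3 and Tnnc2 did not. Tnnt2 and Myh3, at control means of 4.81 and 1.54, reached that mean only through the libraries labelled Zfp292-OE. Tnnt2, Tnni1 and Myh3, 3 of the 8, were past an adjusted p of 0.05 in limma and higher, as were 10% of all tested genes, with 7.38% lower and 17.4% in either direction. The groups did not overlap for the same 3 of 8 genes and for 49.9% of all genes, 24.3% with the libraries labelled Zfp292-OE higher and 25.7% with them lower. Since this contrast chose the genes, nothing is read from these counts. The median log2 difference of the 8 genes was 0.19, beside −0.06 over all 16316 tested genes. Over all genes 1632 were higher and 1204 lower, and 913 and 1986 after scaling to equal totals, which moved the median of all genes to −0.27 and left Tnnt2 at 6.83, Tnni1 at 3.64 and Myh3 at 5.36. With only 1 control library, limma called 0 genes, with 4389 genes at an unadjusted p below 0.05 without control library 1 and 3520 without control library 2, against 5351 with both. In those 2 fits the log2 differences were 7.46 and 6.57 for Tnnt2 and 3.66 and 4.05 for Tnni1. Myh3 was past the threshold neither without library 1 nor without library 3 labelled Zfp292-OE (5.35 and 5.27). The genes were chosen on these values, so the refits describe the estimates and are no support for them.

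**Figure D2:**
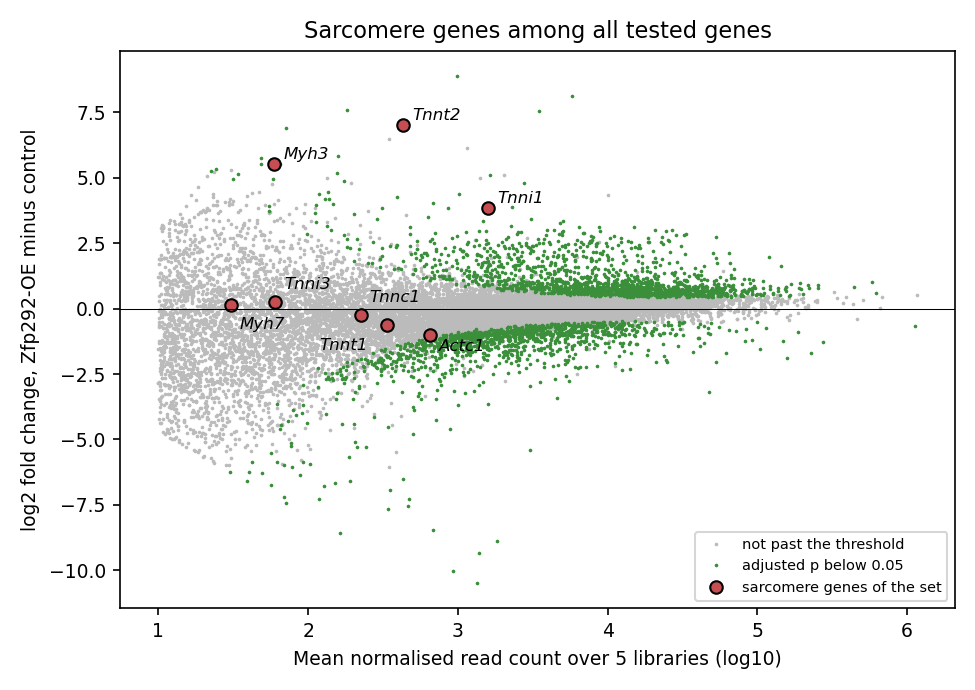
The log2 fold change of each tested gene (libraries labelled Zfp292-OE minus control) against its mean normalised read count over the 5 libraries on a log10 scale. Green points had an adjusted p below 0.05 in limma, and red circles are the 8 sarcomere genes that entered the fit: Tnnt2, Myh3 and Tnni1 lie at 7.02, 5.51 and 3.86, and the other 5 lie between −1.01 and 0.25.

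Levels were compared between genes as normalised reads per kilobase of exon, using the joined exons of all GENCODE M21 transcripts of a gene, which is long for Tnnt2 (7.75 kb) and so lowers its level. In control, the mean level per kilobase was highest for Actc1 (523), then Tnnc1 (235), Tnnt1 (199.8), Tnni1 (48.2) and Tnni3 (26.9), followed by Myh7 (3.32), Tnnt3 (2.41), Tnnt2 (0.620) and Myh3 (0.254). Within that order the library ranges of Tnnc1 and Tnnt1 overlapped, as did those of each neighbouring pair from Myh7 down. In the libraries labelled Zfp292-OE the mean level per kilobase was highest for Tnni1 (710.2), then Actc1 (325), Tnnc1 (202), Tnnt1 (121) and Tnnt2 (92.7). Below them were Tnni3 (31.0), Myh3 (16.1), Myh7 (3.68) and Tnnt3 (2.64). The ranges of neighbours overlapped from Tnni1 down to Tnnt2 and for Myh7 and Tnnt3, while Tnnt2 and Tnni3, Tnni3 and Myh3, and Myh3 and Myh7 did not overlap. Tnnt2 thus moved from rank 8 to rank 5 of the 10 genes and Tnni1 from rank 4 to rank 1.

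Tnnt2 and Tnni1 are close neighbours in the genome. On chromosome 1 their starts lie 53.3 kb apart on the same strand, and the 1 gene of the table that starts between them is Lad1, which encodes ladinin, a basement membrane protein. Lad1 had 8.72 and 6.93 in control and 2.28, 116 and 179 in the libraries labelled Zfp292-OE. It was high in libraries 2 and 3 and not in library 1, and did not pass the test (limma adjusted p = 0.40). Its log2 fold change was 2.22, and 4.04 without library 1, 1.47 without library 2 and 1.16 without library 3. Upstream of Tnni1 by coordinate, Phlda3 (0.24, adjusted p = 0.66) and Csrp1 (−0.07, adjusted p = 0.86) did not pass in limma. Beyond Tnnt2, Pkp1 had 0 in 4 libraries and 2.09 in library 3 labelled Zfp292-OE, and Igfn1 (−1.71, adjusted p = 0.40, and −2.65 without library 2 labelled Zfp292-OE) did not pass. Within 500 kb of the Tnnt2 start, 16 genes were tested, of which 3 were lower, and Tnni1 and Tnnt2 themselves were the 2 higher. Of all tested genes, 7.38% were lower and 10% higher.

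Myh3 lies at one end of the cluster of skeletal myosin heavy chains on chromosome 11. On its outer side, Sco1, a copper chaperone of the mitochondrion (0.24, adjusted p = 0.54), and Adprm (0.23, adjusted p = 0.37) did not pass in limma. On its inner side, Mir6923 and 2310065F04Rik were listed at 0 in all 5 libraries. Myh1, the fast IIx chain, had 0 and 1.54 in control and 33.1, 68.6 and 1.05 in the libraries labelled Zfp292-OE, so it was high in libraries 1 and 2 alone. Myh13, the extraocular chain, had 12.0 and 3.85 in control and 35.4, 32.9 and 20.9 in the others, without overlap. Neither passed the test. Myh2, Myh4 and Myh8 of the same cluster were at 7.63 or below in every library.

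**Figure D3:**
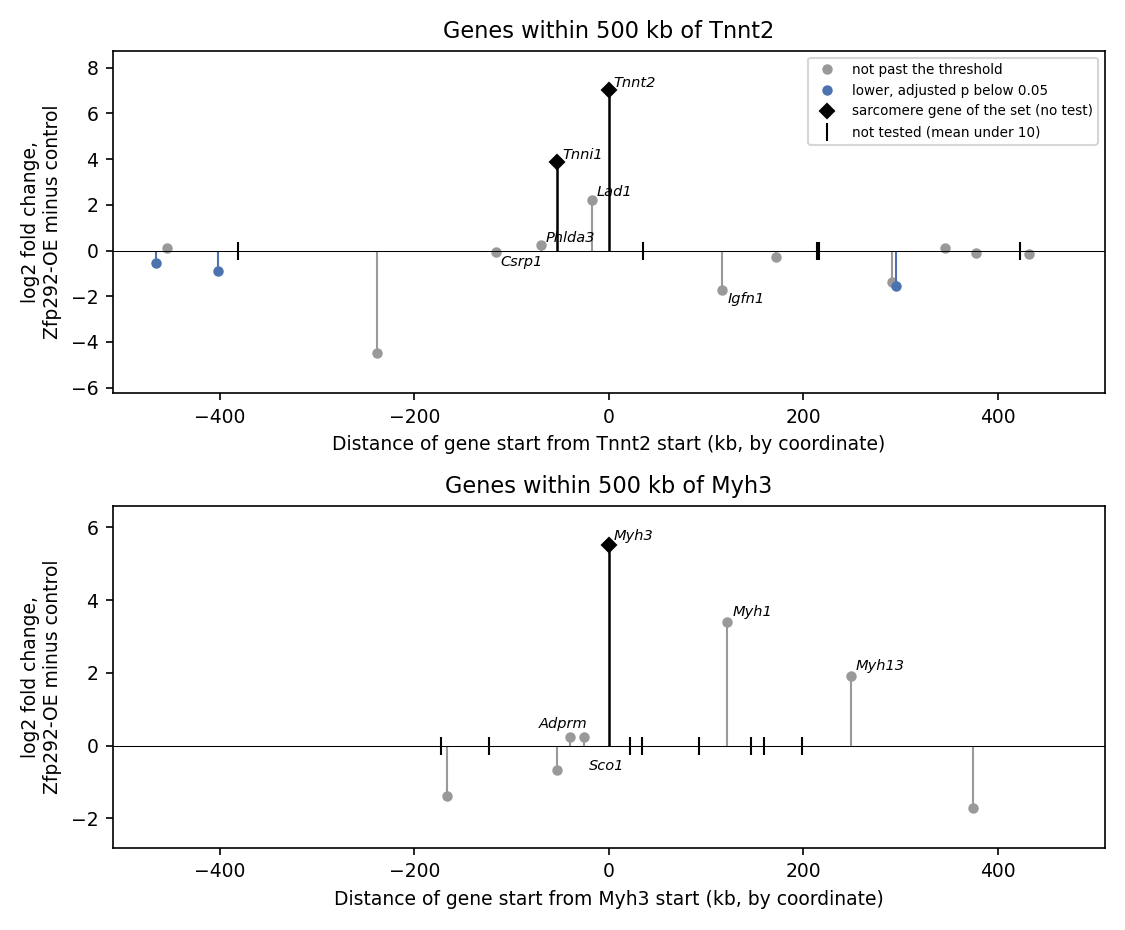
The log2 fold change (libraries labelled Zfp292-OE minus control) of genes within 500 kb of Tnnt2 (top) and Myh3 (bottom), against the distance of their starts in kb by coordinate. Black diamonds are the genes of the set, Tnni1 and Tnnt2 at 3.86 and 7.02 and Myh3 at 5.51; grey points did not pass the limma threshold, blue points were lower, and black ticks were not tested.

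Over all 10 genes, the 2 nearest table genes on each side gave 33 neighbours that are no members. Among the 25 that could be tested, limma called 2 higher and 5 lower, beside 10% higher and 7.38% lower of all tested genes. The median log2 fold change of the 25 was 0.06, beside −0.06 over all genes. Several neighbours overlap a member in the GENCODE annotation, and the sources used here do not say whether counting used strand. The span of Tnnc1 overlaps that of Nisch, which fell (−0.79, adjusted p = 0.017), and that of Actc1 overlaps A530058N18Rik, which fell (−2.22, adjusted p = 0.0043). Tnnc2 was at 0, and its GENCODE span overlaps that of Ube2c, a mitotic ubiquitin-conjugating enzyme that rose (log2 fold change 2.86, limma adjusted p = 0.00050). Control Ube2c averaged 6619 ± 393 (SD, n = 2), against 50958 ± 19895 (SD, n = 3). Tnni3 overlaps Dnaaf3, Tnnt3 overlaps Prr33, and Myh7 overlaps Mhrt and other non-coding genes. By RefSeq coordinates, the spans of Tnnc1 and Nisch, Actc1 and A530058N18Rik, Tnnc2 and Ube2c, and Tnni3 and Dnaaf3 do not overlap. The spans of Tnnt1, Tnnt2 and Tnni1 overlap no other annotated gene, and that of Myh3 overlaps Mir6923, listed at 0.

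Genes with the most similar pattern over the 5 libraries were found among 14286 tested genes with a symbol and a mean of at least 50, by the root mean square difference of their centred log2 values. Since Tnnt2 and Myh3 were chosen for their pattern, these likenesses are a description. Nearest to Tnnt2 was Gpr142, a G protein-coupled receptor (difference 0.31), with 0 in both controls and 90.1, 141 and 128 in the libraries labelled Zfp292-OE. Next came Gm16675 (1.09), at 2.18 and 1.54 in control and 55.9, 152 and 78.5 in the others. The third was Cfap95 (1.37), at 117 and 30.8 in control and 3236, 677 and 4141 in the others. Nearest to Myh3 was Tmem100 (0.68), at 2.18 and 27.0 in control and 324, 276 and 233 in the others. It was followed by 9330117O12Rik (0.69), at 0 and 2.31 against 221, 47.9 and 54.4, and by the guanylate-binding protein gene Gbp11 (0.78), at 0 and 9.24 against 345, 46.1 and 388. All 6 genes were higher in each of the 3 libraries labelled Zfp292-OE than in either control.

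Only Pdlim3 passed in limma among the other sarcomere genes. Of 50 further sarcomere genes, 30 could be tested. At an adjusted p of 0.05 limma called 0 higher and 1 lower, leaving 29 short of the threshold, and the median log2 difference was −0.18. For these counts and those of each list below, the shares over all tested genes were 10% higher and 7.38% lower. The groups did not overlap for 10 of the 30, among them Ttn and Acta1, beside 49.9% of all genes. At an unadjusted p below 0.05, 3 were higher and 1 lower. The edgeR test called 0 higher and 1 lower, and DESeq2 3 higher and 1 lower. The 3 that DESeq2 called were Mylpf, Tpm1 and Tpm3. Of the 20 that were too low to test, 4 had 0 reads in every library, among them Myot and Xirp1 of the Z disc.

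Among the other thick filament genes, 11 of 17 were tested and 0 passed in limma (1 higher at an unadjusted p below 0.05, 0 in edgeR and 1 in DESeq2), with a median of 0.18. Mylpf, the fast skeletal regulatory light chain, was the most abundant, at 2491 and 2648 in control and 4224, 3930.5 and 3386 in the others (0.58, adjusted p = 0.062). Mybpc1, the slow myosin-binding protein C, had 0 and 58.5 in control and 61.6, 75.2 and 132 in the others (3.48, adjusted p = 0.15). Its value was 0.53 without control library 1 and 6.42 without control library 2. The cardiac chain Myh6, which neighbours Myh7 in the genome, had 67.6 and 20.02 in control and 67.3, 47.9 and 23.0 in the others.

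Of the other thin filament genes, 8 of 12 were tested and 0 passed in limma (2 higher at an unadjusted p below 0.05, 0 in edgeR and 2 in DESeq2), with a median of 0.19. The tropomyosins Tpm1 (0.52, adjusted p = 0.053) and Tpm3 (0.81, adjusted p = 0.096), whose family holds troponin T in muscle and also serves non-muscle cells, had the smallest p. Leaving out library 1 labelled Zfp292-OE brought Tpm3 past the threshold (1.12, adjusted p = 0.047), and leaving out library 2 lowered it to 0.46 (adjusted p = 0.22). Tnni2, the fast skeletal troponin I gene, which is no member, had 11.6 in control library 2 and 0 in the other libraries. Of genes of the Z disc, M band and titin, 11 of 21 were tested, 0 rose and 1 fell, with a median of −0.61. Neither edgeR nor DESeq2 called a gene of this list higher, and 0 were higher at an unadjusted p below 0.05. The one that fell was Pdlim3, a PDZ and LIM protein that binds actinin, at a control mean of 5856 ± 1406 (SD, n = 2) against 2507 ± 233 (SD, n = 3) (−1.21, limma adjusted p = 0.0048). Titin, Ttn (−0.45, adjusted p = 0.37), and Obsl1 (0.35, adjusted p = 0.46) did not pass.

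**Figure D4:**
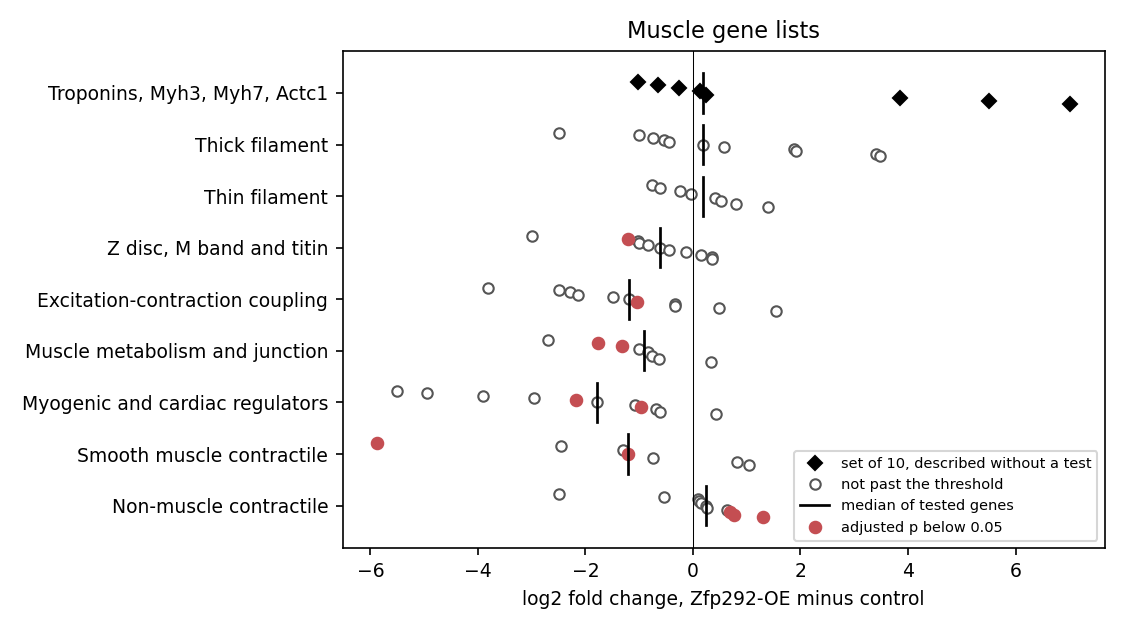
The log2 fold change (libraries labelled Zfp292-OE minus control) of each tested gene in 9 lists, with a vertical bar at the median of each list. Diamonds are the 8 tested genes of the set, with 3 far to the right; filled circles in the other lists had an adjusted p below 0.05, and those to the right of 0 are the 3 non-muscle genes Tpm4, Cnn3 and Myl12a.

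No gene on the list of muscle regulators rose in limma. Of 20 myogenic and cardiac regulators, 11 were tested, 0 rose and 2 fell, with a median of −1.79. At an unadjusted p below 0.05, 1 was higher and 7 were lower, and edgeR and DESeq2 each called 0 higher and 3 lower. Pax7, a regulator of muscle stem cells that is also used in the nervous system, fell (−2.17, adjusted p = 0.015, and 0.058 without library 2 labelled Zfp292-OE). Mef2d, a MADS-box factor of muscle and photoreceptors, fell by 0.97 on the log2 scale (adjusted p = 0.0085). Myog, the myogenin gene, had 33.8 and 57.8 in control and 0 in the 3 other libraries, without passing in limma (adjusted p = 0.092). It passed in edgeR (adjusted p = 0.0498), in DESeq2 (0.012) and with no filter on low values (0.012), in a range of 0.012 to 0.23 over its alternatives. Mef2c had 383 and 505 in control and 9.13, 88.3 and 204 in the others (−2.95, adjusted p = 0.090), and passed without library 3 labelled Zfp292-OE (−3.87, adjusted p = 0.048). Without library 1 it was −1.70. Myod1 had 1.05 in library 3 labelled Zfp292-OE and 0 elsewhere, and the heart factors Gata4 and Nkx2-5 had 2.28 at most.

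Genes of excitation-contraction coupling gave 0 higher and 1 lower of 11 tested (median −1.19), with 1 higher and 2 lower at an unadjusted p below 0.05, and 0 higher and 1 lower in edgeR and in DESeq2. The cardiac ryanodine receptor Ryr2 fell (−1.05, adjusted p = 0.038), but did not pass when any of the 3 libraries labelled Zfp292-OE was omitted (adjusted p = 0.061 to 0.11). Ryr1, the skeletal receptor (−2.13, adjusted p = 0.12, and −1.23 without library 1 labelled Zfp292-OE and −2.76 without library 3), and the calcium store protein Casq1 (0.49, adjusted p = 0.12) did not pass. Of 8 tested genes of muscle metabolism and the junction, 0 rose and 2 fell (median −0.91), with the same counts at an unadjusted p below 0.05, in edgeR and in DESeq2. The muscle enolase Eno3 fell (−1.31, adjusted p = 0.0064), as did the muscle glycogen phosphorylase Pygm (−1.76, adjusted p = 0.030), which lost its call without library 1 or library 3 labelled Zfp292-OE (0.10 and 0.070). Pgam2 (−0.83, adjusted p = 0.30) and Chrna1 (−0.997, adjusted p = 0.51) did not pass.

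Some smooth muscle genes fell, and some actin and myosin partners used by most cells rose. Of 7 tested smooth muscle genes 0 rose and 2 fell (median −1.21), with 0 higher and 3 lower at an unadjusted p below 0.05 and in DESeq2, and 0 and 2 in edgeR. Acta2 had 415 and 43.9 in control and 3.42, 1.88 and 0 in the others (adjusted p = 0.035). It lost its call without any 1 of the libraries labelled Zfp292-OE (adjusted p = 0.054 to 0.064), and its value of −5.87 was −4.26 without control library 1, −7.48 without control library 2 and −5.26 without library 3 labelled Zfp292-OE. Mylk (−1.21, adjusted p = 0.0496) lost its call without library 2 or library 3 labelled Zfp292-OE (0.15 and 0.12). Tagln had a value of −2.45 (adjusted p = 0.0501, and −3.10 with 0.036 without library 2 labelled Zfp292-OE), and Myl9 one of −0.73 (0.22). Of 11 non-muscle contractile genes 3 rose and 0 fell (median 0.24), with 4 higher and 0 lower at an unadjusted p below 0.05 and in DESeq2, and 3 and 0 in edgeR. They were the tropomyosin Tpm4 (1.30, adjusted p = 0.00091), the calponin Cnn3 (0.77, adjusted p = 0.0074, and 0.061 without library 2 labelled Zfp292-OE) and the light chain Myl12a (0.68, adjusted p = 0.0077). Actb (0.64, adjusted p = 0.052) and Myl12b (0.26, adjusted p = 0.21) did not pass. Actb was 0.97 without control library 1 and 0.30 without control library 2, and passed in 4 alternatives, DESeq2 among them (adjusted p = 0.015).

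Some skeletal muscle markers were read in every library. The summed level of 8 skeletal muscle markers was 3459 to 3667 in control and 3930 to 4773 in the libraries labelled Zfp292-OE, and most of it was Mylpf. Without Mylpf it was 968 to 1020 in control and 544 to 792 in the others, most of it Acta1 (744 and 819 in control, and 504, 506 and 515 in the others). Of these 8 markers 0 passed in limma in either direction, with 1 higher and 1 lower at an unadjusted p below 0.05, and edgeR called 0 higher and 1 lower and DESeq2 1 of each. Actn3 had 154 and 120.1 in control and 45.6, 227 and 28.3 in the libraries labelled Zfp292-OE, where it was read in all 3. Of the other 5 markers, Myog and Tnni2 were at 0 in all 3 of these libraries, Ckm, Mb and Myod1 were at 0 in 2 of the 3, and the highest value of the 5 there was 32.9. The 7 heart markers, led by Ryr2 and Nppa, summed to 1683 to 2140 in control and 862 to 1055 in the others, with 0 higher and 1 lower.

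Some markers of other cells moved with the groups as well. All 6 cell division markers rose, among them Ccnb1 (2.83) and Cdk1 (2.40), with sums of 25917 to 29131 in control and 106614 to 221306 in the libraries labelled Zfp292-OE. The rod factor Nr2e3 fell (−1.70, limma adjusted p = 0.00048). Of 6 pericyte markers 3 fell and 0 rose, with sums of 1623 to 2888 and 668 to 901; Rgs5 fell (log2 fold change −7.65, and −8.75 to −6.70 in fits that left out 1 library), while Notch3 did not pass. Among 6 endothelial markers, which summed to 40949 to 49773 and 35295 to 44610, Cldn5 rose (3.35) and Kdr did not pass. Most of that sum was Kdr, at 39920 and 48368 in control and 41822, 31624 and 36800 in the others, so it says little about the other endothelial markers. The 7 fibroblast markers summed to 3477 to 6221 and 1977 to 2440, with Col3a1 lower (−5.53, adjusted p = 0.042); Pdgfra (−0.94, adjusted p = 0.060) did not pass in limma but passed in 5 alternatives, edgeR and DESeq2 among them, and was −1.51 without control library 1 and −0.37 without control library 2. Postn (−3.47, adjusted p = 0.20) did not pass, and was −1.35 without library 1 and −4.66 without library 3 labelled Zfp292-OE. The 6 markers of the retinal pigment epithelium, led by Dct and Tyrp1, summed to 729 to 1228 and 1358 to 1873, and the 5 lens markers, led by Bfsp2 and Bfsp1, to 151 to 159 and 90.2 to 242, with 0 of either passing in limma, edgeR or DESeq2 and 1 lens marker at an unadjusted p below 0.05. The part of these cells in the values of Tnnt2, Tnni1 and Myh3 was not tested.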

How the data were processed

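Messenger RNA was sequenced from GFP+ retinal cells in 5 libraries, 2 control and 3 labelled Zfp292-OE. Per the labels' protocols, a SMARTER kit turned 1.3 µg of total RNA into each library. The deposited values are a normalised signal: the authors scaled the read counts of each library by a single factor, which the numbers reveal, because 100% of them were whole multiples of that factor within 1e-06 of a read. A read was worth 0.770 to 1.14. GRCm38 and mm10 are the builds named, per the submitters' processing notes; for the aligner, the counter, its strand setting and the scaling method: not given in the sources used here. The table had 0 columns of other samples.

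Genes with a mean of at least 10 entered limma 3.58.1 under R 4.3.3 on log2(value + 1). Its two-sided test used an intensity trend, and p-values of the 16316 genes were adjusted by Benjamini-Hochberg. Fold changes on this scale understate changes of low genes. edgeR 4.0.16 and DESeq2 1.42.0 on the recovered whole reads, other scalings, pseudocounts and filters, a replicate block and the omission of single libraries were alternatives. Of the identifiers, 24566 matched RefSeq coordinates of GRCm38.p6. Scripts were tested on simulated data.

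The 10 genes, the other lists, the neighbour and likeness rules and the rule for named genes were chosen with earlier results of these data known. The named genes are the 10, Zfp292, up to 4 passing and 2 other genes of each muscle list with the smallest p, the 2 most abundant markers of each cell type, the neighbours of Tnnt2 and Myh3, and the 3 genes most like each of these in pattern. Genes outside the rule were named after their values were seen: the other myosins and Tnni2, Myot, Xirp1, Myod1, Gata4, Nkx2-5, Acta1, Ckm, Mb, Actn3, Col3a1, Phlda3, Csrp1, and the neighbours that overlap a member. One gene that the rule names, and the sums that hold it, are not reported here.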

Additional observations from a re-analysis of the deposited data

How the results depend on the processing

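Log2 differences of Tnnt2 (5.63 to 8.44), Tnni1 (3.64 to 4.11) and Myh3 (3.15 to 6.52) stayed above 0 in all 15 alternatives. The set was chosen on these same values, so this describes how the estimates vary and is no support for them. The lowest value of Tnnt2 and of Myh3 came with a pseudocount of 10. Myh3 missed the threshold in edgeR (5.78), with a filter at a mean of 50 (5.51) and in 4 of the fits without 1 library; the cause was not tested. Tnni3 (−0.24 to 0.78), Myh7 (−0.18 to 0.82) and Tnnc1 (−0.47 to 0.088) changed sign between alternatives. The count of the 10 genes past the threshold was 0 to 3 in fits without 1 library. Over all genes, higher counts were 913 with equal totals and 0 to 1226 without 1 library, and lower counts were 1986 with equal totals, 1829 in DESeq2 and 0 to 850 without 1 library. Other sarcomere genes gave 1 higher with a pseudocount of 10, with a filter at a mean of 50 and with the replicate block, 3 in DESeq2 and 0 to 1 without 1 library, and 0 to 1 lower without 1 library. The other muscle lists gave 3 lower after quantile normalization, and 0 to 3 higher and 0 to 5 lower without 1 library. With 1 control left, that library is assumed to vary like the others.

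The replicate numbers are shared by the groups, but same-numbered libraries did not deviate together (r = −0.04 for number 1 and −0.03 for number 2, over 16316 genes). With 2 controls, whose deviations mirror each other, this check is weak and cannot exclude a shared origin. The labels do not say whether the numbers pair libraries. With the replicate block, in which library 3 labelled Zfp292-OE has no partner and adds nothing to the fold change, 2498 genes were called, against 2836. Actc1 was past the threshold with the block (−1.75), its only such fit among 15 alternatives. Without library 3 labelled Zfp292-OE the same value of −1.75 was not past it. Actc1 was chosen with its values known, so nothing is read from this. Of 837 refits of the 56 other named genes, 722 kept their side of the threshold and none that passed reversed. Depth limits the control levels of Tnnt2 and Myh3, which rest on 10 and 4 reads.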
